A study of Mus musculus with 6 samples.

Results

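The genes described here encode the receptors for interferons and the proteins that carry their signal to the nucleus: the receptor chains Ifnar1, Ifnar2, Ifngr1 and Ifngr2, the kinases Jak1, Jak2 and Tyk2, and the factors Stat2 and Irf9. They were chosen by name, with earlier results of these data known, and all 9 were found among the 16539 genes of the deposited count table. Polyadenylated RNA was sequenced from granulocyte-monocyte progenitors (GMPs), precursors of neutrophils and monocytes, sorted by flow cytometry from the bone marrow of WT mice on day 3 after myocardial infarction. The control group held 3 libraries of mice with infarction, and the SF group held 3 libraries of mice with infarction and sleep fragmentation (SF), the repeated interruption of sleep. All 6 libraries thus came from infarcted mice, and mice without infarction were not analysed here. The labels give neither age nor whether a library pooled several mice, so the p-values below cover the spread from library to library, which may be technical. Type I interferon is named in the title of the study, and the comparison asks whether transcripts of the machinery that senses interferon differed in the progenitors with sleep fragmentation.

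Type I interferons (the interferon alphas and interferon beta) bind a receptor made of Ifnar1 and Ifnar2, whose cytoplasmic tails carry the kinases Tyk2 and Jak1. Signalling through them leads to ISGF3, a complex that contains Stat2 and Irf9 and binds the interferon-stimulated response element (ISRE) of its target genes. Interferon gamma binds a receptor of Ifngr1 and Ifngr2, which carry Jak1 and Jak2, and its target genes are known for the gamma-activated site (GAS). Irf9 and Stat2 are themselves interferon-inducible in many cell types.

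The promoters of Stat2 and Irf9 are shown because these partners in ISGF3 are themselves interferon-inducible, and that of Ifit1 because it is a classical ISGF3 target. Each is the stretch of 250 bases before the transcription start in RefSeq (build GRCm38.p6, plus strand), read 5′ to 3′, with matches to the ISRE core in capitals. That core was searched on both strands as GAAA, any 2 bases and GAAA again, and the GAS as TTCNNNGAA.
Stat2, chr10:128270248-128270497: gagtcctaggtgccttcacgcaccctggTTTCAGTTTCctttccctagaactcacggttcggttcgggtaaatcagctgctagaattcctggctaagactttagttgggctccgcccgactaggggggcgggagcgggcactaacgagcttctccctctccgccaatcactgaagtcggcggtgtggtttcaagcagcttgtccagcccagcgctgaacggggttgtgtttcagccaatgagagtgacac
Irf9, chr14:55603735-55603984: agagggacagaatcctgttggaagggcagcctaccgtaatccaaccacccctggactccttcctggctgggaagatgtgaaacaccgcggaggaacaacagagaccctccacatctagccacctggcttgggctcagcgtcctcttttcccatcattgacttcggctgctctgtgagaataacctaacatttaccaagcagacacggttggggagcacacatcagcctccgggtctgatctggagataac
Ifit1, chr19:34640639-34640888: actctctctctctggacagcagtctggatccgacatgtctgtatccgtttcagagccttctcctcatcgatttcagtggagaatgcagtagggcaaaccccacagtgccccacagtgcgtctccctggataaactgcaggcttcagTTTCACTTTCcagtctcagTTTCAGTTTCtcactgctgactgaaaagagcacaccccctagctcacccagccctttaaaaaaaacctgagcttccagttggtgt

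Stat2 held 1 ISRE core, TTTCAGTTTC (GAAACTGAAA on the other strand), between 222 and 213 bases before the start. Ifit1 held 2, TTTCACTTTC from 104 to 95 and TTTCAGTTTC from 85 to 76 bases before the start. Neither of the 2 start windows listed for Irf9 held a match to either motif. Windows of 300 bases, which run to 50 bases past the start, were listed for all 9 genes, 10 windows in all. The ISRE core was found in 1 of these 10, that of Stat2, against 3.44% of all 32851 windows. The GAS was found in 2 of the 10 windows, against 8.30% of all windows. These were TTCCTGGAA before Ifnar2, 214 to 206 bases from the start, and TTCACGGAA at the start of Ifnar1. No window of the 9 genes held both motifs. A match is a string of letters and not a shown binding site, and a window without one says nothing of elements elsewhere.

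Depth was alike in all libraries, with total counts between 28971253 and 31665923. All 12 GMP markers were detected, and their levels in CPM (counts scaled to a common library size) summed to between 18107 and 20398 CPM in the control libraries and between 13403 and 19541 CPM in the SF libraries. Of the GMP markers 9 of 12 had lower fitted levels with SF. Elane and Prtn3, granule proteases, had non-overlapping groups, with 2888 ± 36.4 against 2489 ± 388 CPM and 2008 ± 94.1 against 1574 ± 168 CPM (control against SF). Their unadjusted edgeR p-values were 0.25 and 0.051. Over all genes, 3.84% had non-overlapping groups on the lower side. Genes of other cells were also present. The 14 markers of maturing neutrophils, none of them at 0, summed to between 45072 and 79351 CPM in the control libraries and between 50860 and 124621 CPM in the SF libraries. Of these, 14 of 14 had higher fitted levels with SF, but the groups overlapped in all 14. The 7 eosinophil markers summed to between 2649 and 4792 CPM in the control libraries and between 3189 and 4408 CPM in the SF libraries. For the 6 basophil and mast cell markers the sums were 1142 to 2587 CPM (control) and 1045 to 2289 CPM (SF). For the 11 monocyte and macrophage markers they were 2315 to 2626 CPM (control) and 2365 to 2657 CPM (SF). The 6 markers of plasmacytoid dendritic cells, which make much type I interferon, were near 0, with Klk1 at 0, and summed to 0.0947, 0.0637 and 0.578 CPM in the control libraries and 0.598, 0.526 and 0.922 CPM in the SF libraries. The highest control library lay between the SF libraries. The 9 erythroid markers summed to between 15.1 and 34.3 CPM in the control libraries and between 25.9 and 45.6 CPM in the SF libraries. Of these, 8 of 8 tested had higher fitted levels with SF. The groups did not overlap in 2, each higher, against 2.92% of all genes on the higher side. The part of these cells in the results below was not tested. The neutrophil markers were also used as a covariate in 1 alternative fit. Because 14 of 14 had higher fitted levels with SF, that fit cannot tell their part from that of the group. Fewer cells of a type and less RNA per cell cannot be told apart in such bulk libraries.

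Irf9 had the largest difference of the 9 genes, and for the receptors and kinases no difference beyond the spread between libraries was found. Mean Irf9 was 44.5 ± 8.42 against 71.9 ± 20.5 CPM (control against SF, SD, n = 3 each). Of the 9 genes, 7 had higher fitted levels in the SF group, where 49.0% of the 12097 genes tested did, and the median log2 fold change was 0.10 beside -0.0043 over all genes. By edgeR's quasi-likelihood test, adjusted over all genes by the method of Benjamini and Hochberg, 0 of the 9 passed at 0.05, as did 0 of all genes (0.0%). An unadjusted p under 0.05 was reached by 1 of the 9, Irf9, on the higher side. Over all genes that share was 2.82%, with 2.16% higher and 0.661% lower. Groups without overlap were seen for 1 of the 9, again Irf9, against 6.75% of all genes, with 2.92% higher and 3.84% lower. The other tools called 0 of the 9 as well, with 0 genes in all by limma-voom (0.0%; 338 at an unadjusted p under 0.05) and 13 by DESeq2 (0.107%). All 9 genes were well counted, with at least 1104 reads in each library and a counting error of at most 3.01%.

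**Figure D1:**
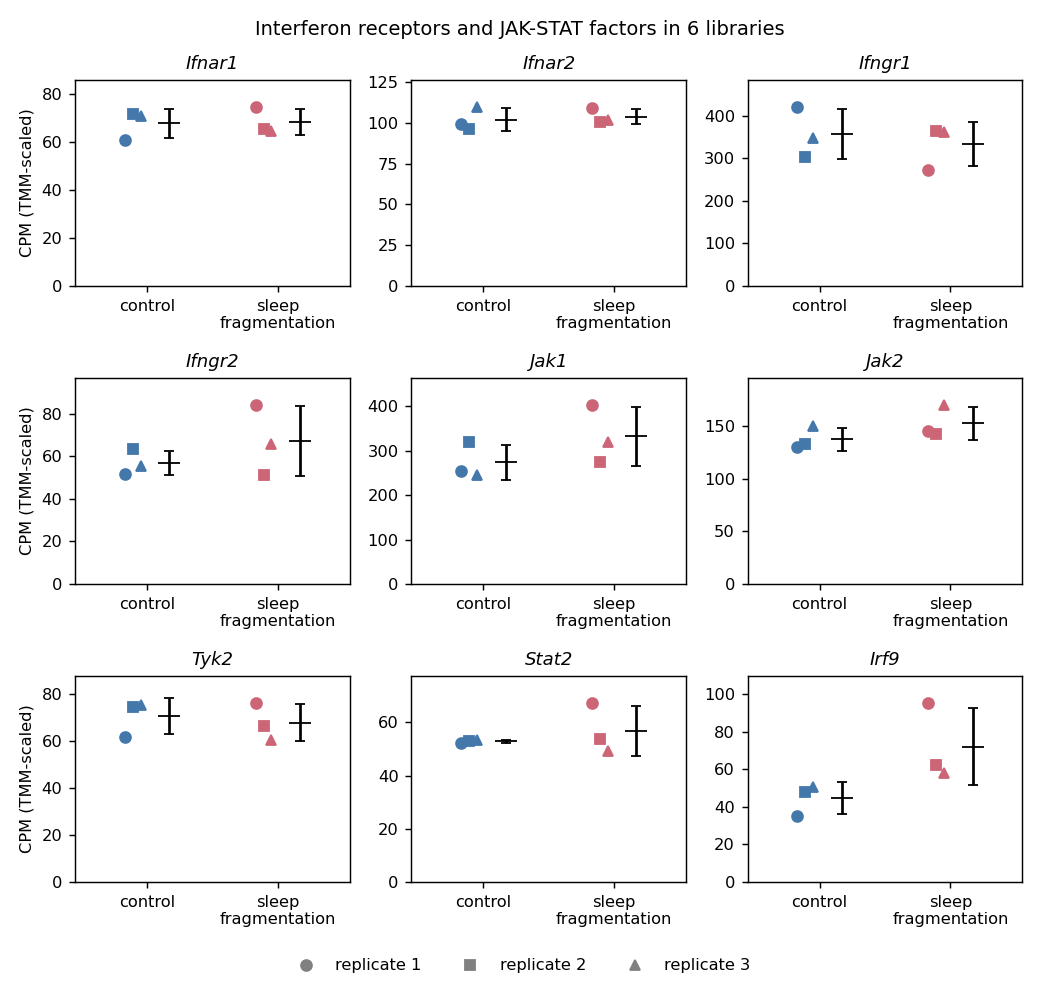
Level of each of the 9 genes in every library, in CPM scaled by TMM factors on an axis from 0, with the marker shape giving the replicate number and the black bar the group mean ± SD. The 3 control values of Irf9, from 34.9 to 50.5 CPM, lie below the 3 SF values, from 57.8 to 95.5 CPM, while the groups overlap in the other 8 genes.

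The chains of the type I interferon receptor did not differ between the groups by more than the spread between libraries. Ifnar1, the chain that carries Tyk2, was at 60.8, 71.7 and 71.2 CPM in the control libraries and at 74.9, 65.7 and 64.9 CPM in the SF libraries. The groups were interleaved, with the lowest value in a control library and the highest in an SF library. Ifnar1 had a log2 fold change of 0.013 (SE 0.12), with a 95% interval from -0.25 to 0.28, that is, from 0.838-fold to 1.21-fold. Ifnar2, the chain that binds interferon most tightly and carries Jak1, was at 99.6, 96.3 and 110.0 CPM in the control libraries and at 109, 101 and 102 CPM in the SF libraries. Both its lowest and its highest value were in control libraries. Ifnar2 had a log2 fold change of 0.026 (SE 0.11), with a 95% interval from -0.22 to 0.27, that is, from 0.861-fold to 1.20-fold. In the SF group Ifnar2 had the smallest coefficient of variation of the 9 genes, 4.31%, beside a median of 13.8% over the 9507 genes with a mean of at least 5 CPM. Ifnar2 is also made as a soluble form, which counts per gene do not separate from the membrane form, and it overlaps the noncoding gene Gm36587 in RefSeq.

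The chains of the interferon gamma receptor ran in opposite ways across libraries (Pearson's r = -0.83 over the 6 libraries). Ifngr1, the ligand-binding chain, was at 421, 303 and 347 CPM in the control libraries and at 273, 364 and 362 CPM in the SF libraries. The lowest value was SF replicate 1 and the highest control replicate 1, with the other 4 libraries between them. Ifngr1 had a log2 fold change of -0.10 (SE 0.17), with a 95% interval from -0.49 to 0.29, that is, from 0.714-fold to 1.22-fold. Ifngr2, the signal-transducing chain, was at 51.9, 63.3 and 55.7 CPM in the control libraries and at 84.4, 51.5 and 66.03 CPM in the SF libraries. Here SF replicate 1 was the highest library and SF replicate 2 the lowest. Ifngr2 had a log2 fold change of 0.24 (SE 0.18), with a 95% interval from -0.16 to 0.64, that is, from 0.893-fold to 1.56-fold. Its unadjusted edgeR p was 0.21. Without SF replicate 2 the log2 fold change of Ifngr2 was 0.40, with an unadjusted edgeR p of 0.027, and without SF replicate 1 it was 0.044. Leaving out SF replicate 2 also raised the share of all genes with an unadjusted p under 0.05, from 2.82% to 10.8%.

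Of the kinases, Jak1 had the largest difference, within the spread between libraries. Jak1, which serves both receptors, was at 255, 319.6 and 246 CPM in the control libraries and at 404, 274 and 319 CPM in the SF libraries. Control replicate 2 lay above SF replicates 2 and 3, so the groups overlapped. The log2 fold change of Jak1 was 0.28 (SE 0.17), with a 95% interval from -0.11 to 0.68, that is, from 0.924-fold to 1.597-fold. Its unadjusted edgeR p was 0.14. Without SF replicate 2 the log2 fold change of Jak1 was 0.40, with an unadjusted edgeR p of 0.044, and without SF replicate 1 it was 0.12. In the fit without SF replicate 2, 10.8% of all genes had an unadjusted p under 0.05, against 2.82% with all libraries. Jak2, which serves the gamma receptor and several growth factor receptors, was at 129.7, 133 and 149.8 CPM in the control libraries and at 145, 142 and 170.1 CPM in the SF libraries. Control replicate 3 lay among the SF libraries. For Jak2 the log2 fold change was 0.15 (SE 0.12), with a 95% interval from -0.13 to 0.43, that is, from 0.915-fold to 1.34-fold. Tyk2, which serves the type I receptor, was at 61.6, 74.2 and 75.4 CPM in the control libraries and at 76.2, 66.2 and 60.5 CPM in the SF libraries. The highest and the lowest Tyk2 values were both in the SF group. For Tyk2 the log2 fold change was -0.058 (SE 0.13), with a 95% interval from -0.36 to 0.24, that is, from 0.781-fold to 1.18-fold. In RefSeq, Jak1 overlaps Raver2 and Stat2 overlaps Apof, whose counts were at most 6 and 15 in any library.

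Of the ISGF3 partners, Irf9 had a larger fold change than Stat2, and the ratio of both was tested across libraries. Stat2, which brings the transactivation domain to the complex, was at 52.3, 53.0 and 53.3 CPM in the control libraries and at 67.5, 53.9 and 49.1 CPM in the SF libraries. The control libraries were nearly equal, and the SF libraries lay on both sides of them. The log2 fold change of Stat2 was 0.10 (SE 0.13), with a 95% interval from -0.20 to 0.41, that is, from 0.870-fold to 1.33-fold. Irf9, the subunit that contacts the ISRE, was at 34.9, 48.1 and 50.5 CPM in the control libraries and at 95.5, 62.4 and 57.8 CPM in the SF libraries. Each SF library lay above every control library, and SF replicate 1 stood highest. The log2 fold change of Irf9 was 0.69 (SE 0.21), with a 95% interval from 0.21 to 1.18, that is, from 1.154-fold to 2.26-fold. The difference did not pass edgeR's test over all genes (unadjusted p = 0.011, adjusted p = 0.99988), and by p Irf9 was at rank 60 of 12097 genes. Over 15 alternatives its lowest adjusted p was 0.423. Without SF replicate 1 the log2 fold change of Irf9 was 0.43, with an unadjusted edgeR p of 0.028. Without replicate 1 of both groups it was 0.29, with an unadjusted edgeR p of 0.069. With the mean log2 level of the maturing neutrophil markers as a covariate it was 0.44, with an unadjusted edgeR p of 0.11.

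**Figure D2:**
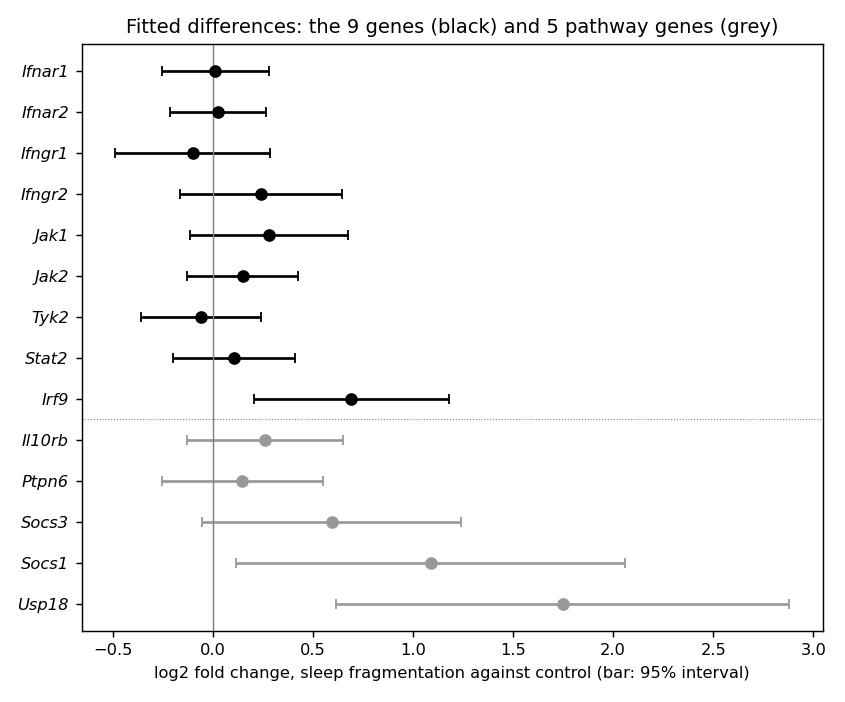
Fitted log2 fold changes of the SF group against control from edgeR, with 95% intervals not adjusted for the number of genes tested, for the 9 genes and for related genes of the pathway. The interval of Irf9 runs from 0.21 to 1.18, and those of the other 8 genes include 0.

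Ratios of partner genes within a library do not depend on how libraries are scaled. Ifnar1 relative to Ifnar2 was 0.611, 0.744 and 0.647 in the control libraries and 0.688, 0.654 and 0.636 in the SF libraries, so the groups overlapped. The mean log2 ratio differed by -0.014 (2-sided exact permutation p = 0.9). Ifngr1 relative to Ifngr2 was 8.12, 4.79 and 6.23 in the control libraries and 3.23, 7.07 and 5.49 in the SF libraries. This ratio was lowest in SF replicate 1 and highest in control replicate 1. Its mean log2 value differed by -0.32 (2-sided exact permutation p = 0.5), and by -0.00069 without SF replicate 1. Stat2 relative to Irf9 was 1.499, 1.10 and 1.06 in the control libraries and 0.707, 0.863 and 0.850 in the SF libraries. Stat2 thus had more reads than Irf9 in each control library and fewer in each SF library. The ratio contains Irf9, whose groups did not overlap by themselves, so this separation is not a result independent of Irf9. The mean log2 ratio was 0.27 ± 0.28 (SD, n = 3) in control and -0.32 ± 0.16 (SD, n = 3) in the SF group. The difference of -0.58 had a 2-sided exact permutation p of 0.1, the smallest that 3 against 3 libraries allow. Adjusted over the 3 ratios, the exact permutation p was 0.3.

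**Figure D3:**
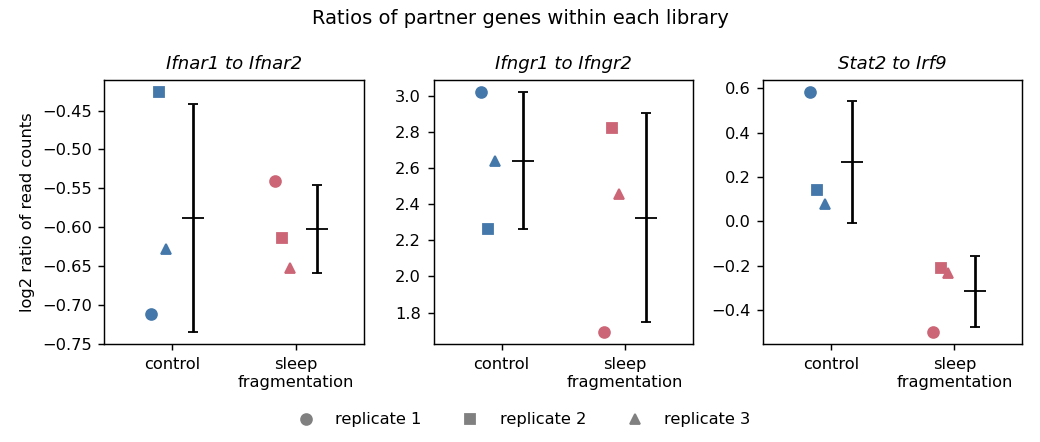
Log2 ratio of 2 partner genes in each library, with the group mean ± SD in black. The ratio of Stat2 to Irf9 is above 0 in the 3 control libraries and below 0 in the 3 SF libraries, whereas the groups overlap for both receptors.

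Levels of different genes were compared per kilobase of the longest principal transcript. In control, Ifngr1 stood highest, at 169 ± 28.2 CPM per kilobase (SD, n = 3), followed by Jak1 at 55.8 ± 8.19, Ifnar2 at 33.5 ± 2.34 and Jak2 at 27.3 ± 2.16 CPM per kilobase. The control ranges of these neighbours in the order did not overlap. Irf9 (18.1 ± 3.43), Ifnar1 (17.4 ± 1.57), Ifngr2 (15.4 ± 1.57) and Tyk2 (14.6 ± 1.58 CPM per kilobase) followed, each overlapping the next. Stat2 was lowest, at 12.03 ± 0.122 CPM per kilobase, with no overlap with Tyk2. Ifngr1 lay above Jak1, and Jak1 above Ifnar2, in each of the 6 libraries. In the SF group Irf9 stood at 29.2 ± 8.35 CPM per kilobase, overlapping Jak2 at 30.3 ± 3.06 and not Ifngr2, the next below it at 18.2 ± 4.45 CPM per kilobase. With the length of all exons merged, a choice made after seeing the data, 5 of the 9 genes kept their place in the control order, and Irf9 came last, at 8.26 CPM per kilobase below Stat2 at 8.92.

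**Figure D4:**
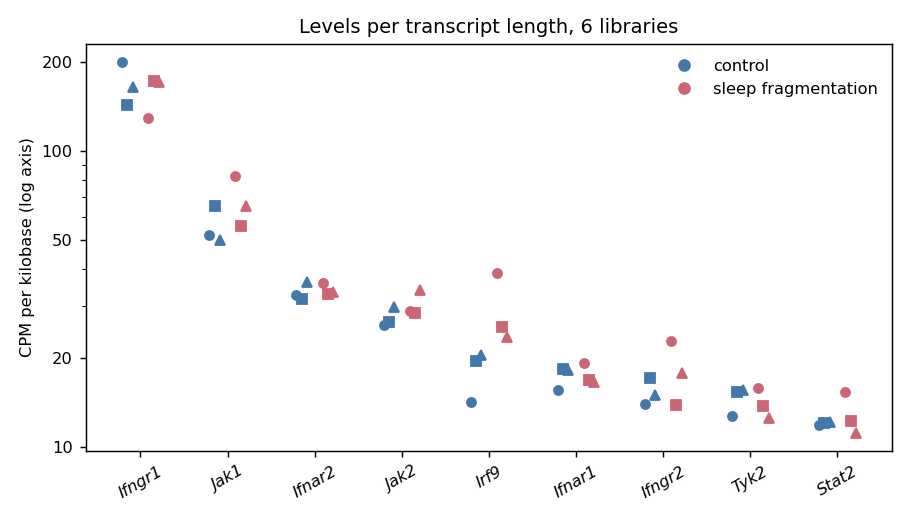
CPM per kilobase of principal transcript on a log axis for the 9 genes, with 1 point for each library. Ifngr1 lies above all other genes in the 6 libraries, and Stat2 has the lowest control mean.

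Several of the genes varied together across libraries. SF replicate 1 was the highest library for Ifnar1, Ifngr2, Jak1, Tyk2, Stat2 and Irf9 and the lowest for Ifngr1. Jak1 and Ifngr2 moved together (Pearson's r = 0.94 over the 6 libraries), and both followed the mean log2 level of the maturing neutrophil markers, with r = 0.97 for Jak1 and 0.93 for Ifngr2. Ifngr1 ran against these markers (r = -0.74), and Irf9 had r = 0.75 with them. Ifnar1 moved with Tyk2 (r = 0.93) and opposite to Ifngr1 (r = -0.94). These correlations describe 6 libraries of 2 groups that share their scaling factors. In control replicate 2 the neutrophil markers stood at 0.22 log2 units relative to their mean over all libraries, and Irf9 at -0.21. In SF replicate 2 the markers stood at -0.34 and Irf9 at 0.17. Both stood below their means in control replicates 1 and 3 and above them in SF replicates 1 and 3. With the marker level as a covariate, the log2 fold changes of Jak1 and Ifngr2 were -0.029 and -0.11, and that of Ifngr1 was 0.13.

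**Figure D5:**
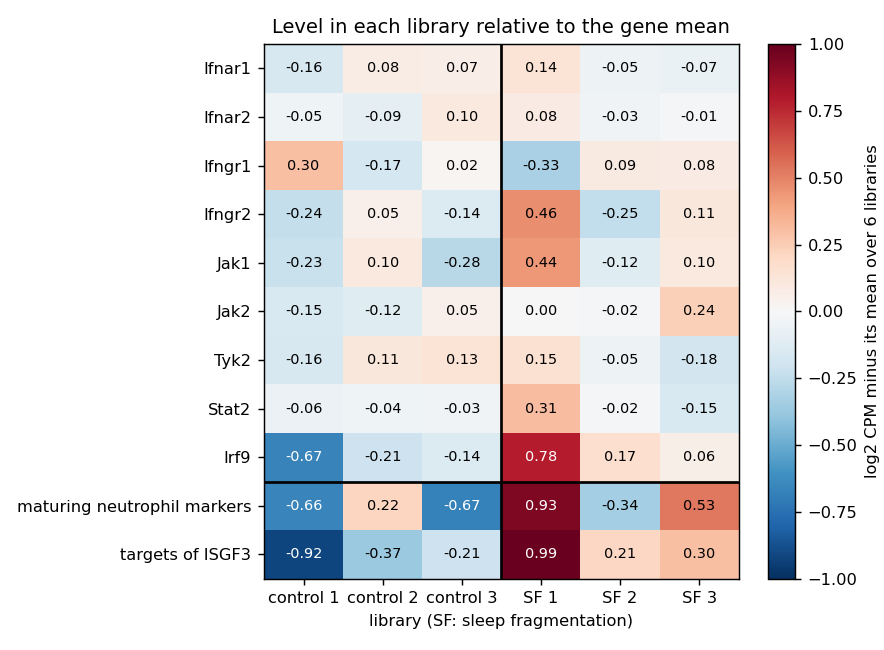
Log2 CPM of each gene in each library minus its mean over the 6 libraries, with the maturing neutrophil markers and the ISGF3 targets as list means. Irf9 runs from -0.67 to 0.78. It is above 0 in the 3 SF libraries and below 0 in the 3 control libraries, as are the ISGF3 targets. The neutrophil markers share these signs except in control replicate 2, where they are above 0, and SF replicate 2, where they are below 0.

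Other genes of the pathway were read from lists of known genes, none of which held a gene that passed edgeR's test over all genes. DESeq2 called 7 genes of these lists, all of them ISGF3 targets, and 0.107% of all genes. Of 6 other chains of the same receptor family, 6 had higher fitted levels (median 0.21) and 0 had an unadjusted p under 0.05. This median was -0.0056 with the maturing neutrophil markers as a covariate, 0.078 without SF replicate 1 and 0.071 without replicate 1 of both groups. Il10rb, a chain shared by the receptors for interleukin 10 and interferon lambda, lies between Ifnar2 and Ifnar1 on chromosome 16, with Ifngr2 next, in RefSeq. It had 53.4 ± 9.22 against 64.0 ± 11.5 CPM, with overlapping groups.

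Of 18 tested inhibitors of the pathway, 14 had higher fitted levels (median 0.13), 4 had an unadjusted p under 0.05, each higher, and the groups did not overlap in 4. Over all genes these shares were 49.0%, 2.16% and 2.92%, the last 2 on the higher side. Usp18 and Isg15 were also on the list of ISGF3 targets, and Socs1 on that of interferon gamma targets. The median did not keep its direction, at -0.033 with the maturing neutrophil markers as a covariate, -0.0085 without replicate 1 of both groups and 0.0037 without SF replicate 1. Usp18, which blocks Jak1 at Ifnar2, was at 1.23, 2.23 and 4.41 CPM in the control libraries and at 13.8, 5.32 and 7.38 CPM in the SF libraries. Socs1, which inhibits the JAKs, was at 0.600, 1.08 and 0.700 CPM in the control libraries and at 1.496, 1.92 and 1.66 CPM in the SF libraries. The groups did not overlap in either gene. Their log2 fold changes were 1.75 (SE 0.50) and 1.09 (SE 0.43), with unadjusted edgeR p-values of 0.0069 and 0.032. Without control replicate 3 that of Usp18 was 2.35. Isg15, a ubiquitin-like protein that stabilises Usp18 in human cells, had 2.57 ± 0.818 against 5.96 ± 2.94 CPM. Ptprc, the phosphatase CD45, had 565 ± 119.9 against 819 ± 227 CPM, with overlapping groups. Socs3, another inhibitor of JAKs, had 3.57 ± 0.700 against 5.399 ± 1.38 CPM, and Ptpn6, the phosphatase SHP-1, had 358 ± 51.9 against 396 ± 78.4 CPM. Of 20 partners of the receptors and STATs, such as coactivators and importins, 8 had higher fitted levels (median -0.019) and 0 had an unadjusted p under 0.05.

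Of 37 tested ISGF3 targets, 36 had higher fitted levels with SF (median 0.74), 25 had an unadjusted p under 0.05, each higher, and the groups did not overlap in 21, each higher. That median was 0.45 with the maturing neutrophil markers as a covariate, 0.47 without SF replicate 1 and 0.38 without replicate 1 of both groups. Over all genes, 49.0% had higher fitted levels, 2.16% an unadjusted p under 0.05 on the higher side, and 2.92% non-overlapping groups on that side. The list of ISGF3 targets was chosen with results of these libraries known and is not independent evidence of its direction. Ifit1, an antiviral RNA-binding protein, was at 0.474, 1.75 and 2.07 CPM in the control libraries and at 14.6, 6.34 and 7.23 CPM in the SF libraries. Irf7, the factor that amplifies type I interferon production, had 11.5 ± 3.48 against 27.9 ± 17.8 CPM. Xaf1, Ifit3b and Rsad2 had log2 fold changes of 1.40 (SE 0.26), 3.50 (SE 0.72) and 2.04 (SE 0.45). Ifit3b had only 6, 19 and 17 reads in the control libraries, against 275, 75 and 64 in the SF libraries. Without SF replicate 1 the log2 fold change was 2.41 for Ifit3b, 1.37 for Rsad2 and 0.63 for Irf7, the last from 1.28 with all libraries. DESeq2 called 7 of the 37, against 0.107% of all genes. Among them were Ifit1, Ifit3b, Xaf1 and Rsad2, with DESeq2 adjusted p-values of 0.00051, 0.00051, 0.00061 and 0.0021. The ISRE core was found in 15 of 33 promoter windows of 28 ISGF3 targets with a listed window. Of 24 interferon gamma targets, 21 had higher fitted levels (median 0.41) and 7 had an unadjusted p under 0.05, each higher (2.16% over all genes). Among them, Irf1 had 59.6 ± 7.24 against 74.7 ± 14.2 CPM. Irgm1, Igtp, Gbp2 and Irgm2, GTPases against pathogens inside cells, had log2 fold changes of 0.56, 0.65, 0.81 and 0.83, and that of Irgm2 was 0.39 without SF replicate 1.

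Of 21 interferon genes listed, 4 were among the genes counted, and transcripts of these 4 were near the detection limit. Ifnb1 had 1 read in control replicate 3 and 0 in the other libraries, and Ifnk had the same counts. Ifnz had 0 reads in all 6 libraries. Ifng had 4, 7 and 2 reads in the control libraries and 1, 0 and 0 in the SF libraries. A count of 0 allows up to 3 reads, or at most 0.112 CPM in a single library, which covers counting error only. The other 17 interferon genes listed, among them every interferon alpha, were not among the 16539 genes counted. Their levels are thus not known.

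Genes whose levels over the 6 libraries were most like those of Irf9 and Stat2 were ranked by Pearson correlation of log2 CPM among 9506 genes. For Irf9 these were Arl3 (r = 0.991), Oasl2 (0.988), Trim30a (0.982), Ddx60 (0.980) and Elac1 (0.978). Oasl2, Trim30a and Ddx60 are known interferon-stimulated genes. Oasl2 had 17.1 ± 5.95 against 52.1 ± 30.03 CPM, Trim30a had 68.2 ± 9.69 against 101 ± 19.5 CPM and Ddx60 had 24.9 ± 5.51 against 56.0 ± 24.8 CPM. These genes were picked for their likeness to Irf9 over the same libraries, so their difference between groups follows from the choice. For Stat2 they were Cenpl (r = 0.998), Clec16a (0.996), Etv3 (0.982), Tnfrsf14 (0.980) and Chmp1a (0.972). An r of at least 0.95 was reached by 38 genes for Irf9 and by 17 for Stat2.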

How the data were processed

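The data are gene counts of 6 GMP libraries, 3 a group, grouped and numbered by the sample titles. The authors deposited raw counts by gene symbol. Per the submitters' processing notes, the tools were fastp, HISAT2 and HTSeq and the build GRCm39. Versions, annotation and strand setting are not given in the sources used here, so reads of overlapping or antisense genes cannot be told apart. The analysis ran in edgeR 4.0.16 under R 4.3.3. The filterByExpr filter (minimum count 10, minimum total 15) kept 12097 of 16539 genes. Libraries were scaled by TMM factors (0.910 to 1.09) and groups compared by robust quasi-likelihood, with p-values adjusted over all genes at 0.05. A standard error is the log2 fold change divided by the square root of F. Log2 CPM used a prior count of 2. In simulated data with 200 of 12097 genes changed, all with a mean of at least 5 CPM, the test found 22.1% of 1.5-fold, 75.2% of 2-fold and 98.5% of 4-fold changes, and 7.13% of its calls were false. The simulation drew each gene independently and so lacked variation that genes share across libraries. Its rates therefore need not hold for the data, where Ifit1 did not pass at a log2 fold change of 2.71.

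The named genes were the 9 members, Il10rb, interferons with a count, Socs1, Socs3, Usp18, Ptpn6, Ifit1, Irf7 and Irf1, up to 4 genes of each other pathway list with the smallest unadjusted p under 0.05, and the 5 genes most like Stat2 and Irf9. Ifnz, Klk1, Elane, Prtn3, Raver2, Apof and Gm36587 fall outside that rule, and some genes it names are not reported here. Members and lists were chosen with earlier results of these data known, and Usp18, Isg15 and Socs1 stand in more than 1 list. Promoters are from RefSeq (GRCm38.p6) and transcript lengths from GENCODE M21 (GRCm38), so no gene coordinates are given for counts made on GRCm39. DESeq2 1.42.0, limma 3.58.1 and other scalings, filters, a covariate, a replicate block and left-out libraries were alternatives.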

Additional observations from a re-analysis of the deposited data

How the results depend on the processing

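None of the 9 genes passed the adjusted threshold under any of 15 alternatives, and DESeq2 alone called genes, 13 in all. Leaving out 1 library gave between 155 genes (1.26%, without control replicate 1) and 1330 genes (10.8%, without SF replicate 2) at an unadjusted p under 0.05. The log2 fold change stayed above 0 for Irf9 (0.29 to 0.83) and Jak2 (0.041 to 0.22). The median of the 9 genes was -0.0034 by library size only, 0.0057 with the neutrophil marker covariate and -0.019 without replicate 1 of both groups, and 0.024 to 0.14 with 1 library left out. The median of inhibitors was -0.033 with the covariate (0.0037 to 0.23 with 1 library left out). That of receptor and STAT partners was -0.13 by library size only, -0.056 with the covariate and -0.048 without replicate 1 of both groups (-0.043 to 0.0036 with 1 library left out). Scaling by library size only moved the median of all genes to -0.11.

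Log2 fold changes opposite in sign to the main ones were, by library size only, Ifnar1 -0.093, Ifnar2 -0.081, Stat2 -0.0034, Cenpl -0.070, Etv3 -0.049, Tnfrsf14 -0.067 and Chmp1a -0.0023. With the covariate they were Ifnar1 -0.081, Ifngr1 0.13, Ifngr2 -0.11, Jak1 -0.029, Il10rb -0.061, Ptpn6 -0.18, Tnfrsf14 -0.030 and Chmp1a -0.060. Without replicate 1 of both groups they were Ifnar1 -0.13, Ifnar2 -0.027, Ifngr1 0.16, Ifngr2 -0.019, Stat2 -0.045, Ptpn6 -0.020, Cenpl -0.014, Clec16a -0.058, Etv3 -0.035, Tnfrsf14 -0.080 and Chmp1a -0.075. With 1 library left out, log2 values ran from -0.061 to 0.056 for Ifnar1, -0.011 to 0.084 for Ifnar2, -0.20 to 0.034 for Ifngr1, -0.15 to 0.016 for Tyk2, -0.038 to 0.20 for Stat2, -0.015 to 0.069 for Cenpl, -0.042 to 0.24 for Clec16a, -0.021 to 0.12 for Etv3, -0.064 to 0.11 for Tnfrsf14, -0.077 to 0.21 for Chmp1a and -0.075 to 0.067 for the ratio of Ifnar1 to Ifnar2. The cause of these changes was not tested. Same-numbered libraries did not deviate together (correlations -0.42, -0.68 and -0.094 over 9507 genes). Control replicate 2 with SF replicate 1 gave 0.69. These deviations were taken from the group means, so they cannot settle whether same-numbered libraries were prepared together. With the replicate block 169 genes had an unadjusted p under 0.05, 0 were called, and the log2 fold change of Irf9 was 0.67. The order per kilobase depended on the transcript length used, with 5 of 9 genes at the same place. Among the genes described, depth limited the interferon genes that were counted and the plasmacytoid dendritic cell markers. Control reads were also few for Ifit3b (6, 19 and 17) and Socs1 (19, 34 and 23).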
